A study of Homo sapiens with 10 samples.

Results

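The SLC25 genes encode the mitochondrial carriers, and their RNA-Seq counts were examined here in lines of the leukaemia cell line RS4;11. Members were taken as the protein-coding genes whose GENCODE 29 symbol starts with SLC25A, matched by Ensembl identifier to the count files, which gave 48 of 19376 named protein-coding genes. By the substrate they are known to carry they were placed in groups for nucleotides (10 genes), phosphate (1), carboxylates (4), amino acids (9), cofactors (11), iron (2) and uncoupling-like carriers (3), and 8 genes had no assigned substrate. Relatives with other symbols, such as UCP2, were outside the members, and sums, shares and rankings of the family leave them out.

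RS4;11 is an established B-cell precursor acute lymphoblastic leukaemia (BCP-ALL) line, and venetoclax (VEN) inhibits the anti-apoptotic protein BCL-2. The 5 VENins lines had been cultured under increasing concentrations of VEN, whereas the 5 VENsens lines had received its solvent DMSO in parallel. By the study's methods, VENins lines then stayed under VEN and VENsens lines were kept without it. The drug was washed off before an analysis. Acquired insensitivity and recent exposure to VEN therefore cannot be told apart in this comparison. All 10 lines were derived from the same parental line and grown separately, and each gave 1 poly(A) RNA library, so that the spread within a group is the spread between such lines and not between patients. Counts on genes amounted to 20631907 to 28323643 per library in VENsens and 21145316 to 25394653 in VENins lines. Values are given as CPM, the counts relative to the library's total after TMM normalization, and levels of different genes are compared only as CPM per kilobase of merged exons. This corrects for length alone, and how well reads across exon junctions were aligned was not examined.

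Mitochondrial carriers are small membrane proteins, most of them in the inner membrane, which let metabolites cross between the cytosol and the matrix. They supply oxidative phosphorylation with ADP and phosphate, export ATP and citrate, link cytosolic and matrix NADH through shuttle systems, and bring in cofactors and iron. All are encoded in the nucleus, and those of the inner membrane reach it through the TIM22 import route, while BCL-2, the target of VEN, acts at the outer membrane of the same organelle.

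The libraries carried the markers of the labelled cell type. All 7 B-cell precursor markers lay above 1 CPM in every library, with a summed level of 2412 to 2761 CPM per library. DNTT, the terminal transferase of lymphoid precursors, varied from 1.08 to 27.3 CPM between lines. Of the T-cell markers CD3D, CD3E, CD3G and CD247 (TRAC was not found by name), none averaged above 1 CPM in either group, and their sum was 0.832 to 1.57 CPM. The 5 myeloid markers summed to 7.41 to 12.6 CPM and the 3 fibroblast markers to 1.93 to 3.34 CPM. The B-cell precursor markers had no shared direction. CD79A, CD79B, EBF1 and VPREB1 had log2 fold changes of 0.08, 0.24, 0.06 and 0.14, none of them called by edgeR, while PAX5 was called and fell by 0.31 on the log2 scale in VENins lines (adjusted p = 0.0272 in edgeR's quasi-likelihood test), a call that was lost without line pair 2, 3 or 5 (adjusted p = 0.242, 0.0597 and 0.0647 in edgeR, with a range of 1.24e-06 to 0.242 over all alternatives). Its log2 fold change was -0.26, -0.34 and -0.32 without line pair 2, 3 and 5, and -0.20 with the length and GC trend of each library taken out. In bulk RNA, a different share of cells and a different amount of RNA per cell cannot be told apart.

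Of the 48 members, 38 passed edgeR's filter on low counts and were tested. SLC25A18, a glutamate carrier, had 52 counts over the 10 libraries, SLC25A47 had 14, the ornithine carrier SLC25A2 had 11 and SLC25A52, a NAD carrier, had 4, and these were not tested. A further 6 members, SLC25A6, SLC25A21, SLC25A27, SLC25A31, SLC25A48 and SLC25A53, were listed at 0 in every library. A count of 0 allows a level of up to 0.106 to 0.145 CPM, depending on the library (3 counts; counting error only). For SLC25A6, whose sequence stands on both sex chromosomes, this limit is uncertain, as described with the nucleotide carriers.

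The carrier transcripts were at nearly the same level in VENins and VENsens lines. Summed over the family, VENsens lines 1 to 5 had 2367, 2271, 2374, 2371 and 2364 CPM, and VENins lines 1 to 5 had 2368, 2392, 2364, 2412 and 2429 CPM. The sums overlapped between the groups, with VENsens line 2 the lowest and VENins line 5 the highest (2349 ± 44.2 against 2393 ± 28.2 CPM, SD, n = 5 each). Log2 fold changes of the 38 tested members, VENins minus VENsens, ran from -0.18 for SLC25A51 to 0.23 for SLC25A35. The 95% interval of the log2 fold change lay within ±0.25 for 19 members, within ±0.5 for 35 and within ±1 for all 38 tested, so that a 2-fold difference lay outside the interval of each of them.

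No member was called at an adjusted p under 0.05 by edgeR's quasi-likelihood test with the line number in the model, against 0.197% of all 16756 tested genes (33 genes). With an unadjusted p under 0.05 stood 3 members (7.89%), SLC25A33, SLC25A42 and SLC25A51, against 16.2% of all tested genes. EdgeR without the line number called 0 members and 0.889% of all genes, and DESeq2 with the line number called 0 members and 1.3% of all genes. DESeq2 without the line number called 1 member, SLC25A33, and 4.41% of all genes. Groups did not overlap in CPM for 3 members, SLC25A33, SLC25A20 and SLC25A51, beside 4.66% of all tested genes. Each share of members rests on 38 genes and is given as a description only.

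The direction was less even than the sizes. A log2 fold change above 0 was found for 27 of the 38 tested members (71.1%), against 51.1% of all tested genes, with a median of 0.05 for the members and 0.00 for all tested genes. This count was 27 as well with RLE size factors or with library size alone, and it ranged from 21 (without line pair 5, beside 49.1% of all tested genes) to 28 (without line pair 1, beside 52.2%), with medians from 0.02 (without line pair 2) to 0.08 (without line pair 3). Within pairs 1 to 5 of same-numbered lines, the median log2 CPM difference of the members was -0.01, 0.12, -0.01, 0.05 and 0.03, so that it lay below 0 in 2 of 5 pairs and was largest in pair 2. Higher CPM in VENins lines in all 5 pairs of same-numbered lines was seen for 4 members, among them SLC25A20, SLC25A33 and SLC25A43, beside 7.61% of all genes. Lower CPM in all 5 pairs was seen for SLC25A42 and SLC25A51, beside 6.66% of all genes. The median absolute log2 fold change was 0.0888 in the members and 0.0939 in all tested genes, and the median standard error was 0.0714 and 0.0823.

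**Figure D1:**
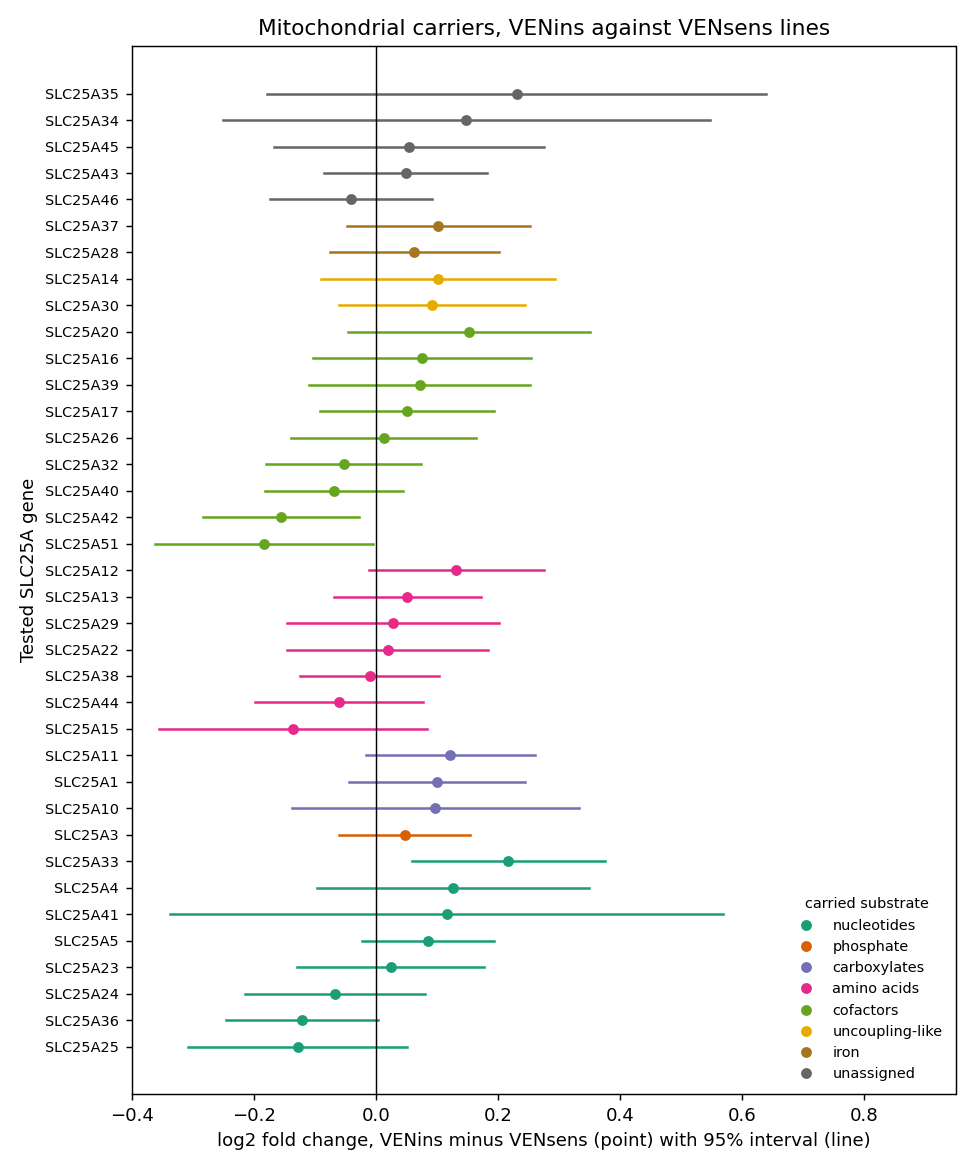
Log2 fold change (VENins minus VENsens) of the 38 tested members, 1 of them not shown, from edgeR, points, with 95% intervals, lines, ordered and coloured by carried substrate. Points lie between -0.18 and 0.23, and the intervals of SLC25A33, SLC25A42 and SLC25A51 exclude 0.

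Nucleotide carriers made up the largest share of the family's level per kilobase of merged exons, 44.0 ± 0.604% over VENsens lines and 44.5 ± 0.799% over VENins lines (SD, n = 5 each). SLC25A6 entered this share at its listed 0. The share depended on the length given to each gene, and in VENsens lines it was 39.6% with the longest coding transcript and 32.3% with the median coding transcript, a setting added after the data had been seen. Of their 10 genes 8 were tested, of which 5 had a higher and 3 a lower level in VENins lines, with a median log2 fold change of 0.05. Most of this share came from SLC25A5 (ENSG00000005022, chromosome X, 119468400 to 119471319, plus strand, GRCh38), the adenine nucleotide translocase ANT2, which exchanges cytosolic ADP for matrix ATP in dividing cells. SLC25A5 was at 369, 322, 353, 361 and 361 CPM in VENsens lines 1 to 5 and at 364, 369, 383, 385 and 372 CPM in VENins lines 1 to 5. VENsens line 2 lay below all other lines, and the groups overlapped through VENsens line 1. The log2 fold change was 0.09 with a standard error of 0.05 (adjusted p = 0.426 in edgeR). SLC25A4, the translocase ANT1 of heart and muscle, averaged 8.99 ± 1.09 CPM over VENsens lines and 9.80 ± 0.803 CPM over VENins lines, and per kilobase SLC25A5 exceeded it 127-fold in VENsens and 124-fold in VENins lines. SLC25A31, the translocase ANT4 of the testis, was listed at 0.

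SLC25A6 encodes ANT3, a further translocase, and it was listed at 0 in all 10 libraries. The gene lies in the pseudoautosomal region, which chromosomes X and Y share. In GENCODE 29 the SLC25A6 transcripts on X and Y were identical, and 1988 of 1988 stretches of 75 bases in one were present in the other, so that a read of that length matches both copies equally well wherever both are in the reference. Other genes of these regions were also near 0: of 41 pseudoautosomal genes 36 had no count in any library, among them 13 of 18 protein-coding genes, and the highest total over the 10 libraries was 32 counts. Reads of low alignment quality, 24.6% to 26.2% of each file, had been set aside by the authors' counting and are absent from the gene counts. Whether this step removed SLC25A6 was not tested, and its transcript level cannot be read from these counts.

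Processed pseudogenes of the carriers did receive counts, and sequences are shown for their closeness to the carriers. SLC25A6P2 on chromosome 9 had 10620 counts in all, with means of 43.1 CPM for VENsens and 45.2 CPM for VENins lines, although its parent SLC25A6 had none. The coding sequence of SLC25A6 and the pseudogene were identical at 89.3% of aligned positions, and 0 of 820 stretches of 75 bases were shared. SLC25A6 and SLC25A5 were identical at 79.5%, also with 0 of 820 stretches shared. The lines that follow give 75 bases of the SLC25A6 coding sequence (chromosome X, 1389652 to 1389726, minus strand), of SLC25A6P2 (chromosome 9, 31254013 to 31254087, plus strand) and of SLC25A5 (chromosome X, 119469662 to 119469736, plus strand), all from GENCODE 29 on GRCh38 by gene identifier. Capitals mark differences, in the first sequence those from the pseudogene and in the others those from SLC25A6.
SLC25A6: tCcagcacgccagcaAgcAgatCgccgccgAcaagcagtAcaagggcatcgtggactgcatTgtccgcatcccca
SLC25A6P2: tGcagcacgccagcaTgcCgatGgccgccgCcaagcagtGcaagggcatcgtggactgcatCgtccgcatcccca
SLC25A5: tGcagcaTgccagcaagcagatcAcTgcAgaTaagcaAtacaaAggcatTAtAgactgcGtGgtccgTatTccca
Over these 75 bases the pseudogene differed from SLC25A6 at 7 positions and SLC25A5 differed from it at 15. Which gene the reads counted on SLC25A6P2 came from was not tested. Added to SLC25A6, pseudogene counts would give that gene 2.84% of the family's level per kilobase in VENsens lines.

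The pyrimidine nucleotide carriers SLC25A33 and SLC25A36, which import nucleotides for mitochondrial DNA and RNA synthesis, stood on opposite sides of 0. SLC25A33 (ENSG00000171612, chromosome 1, 9539482 to 9585179, plus strand) was at 17.4, 14.5, 16.0, 15.4 and 17.0 CPM in VENsens lines 1 to 5 and at 18.8, 18.7, 18.8, 18.9 and 18.0 CPM in VENins lines 1 to 5. All VENins lines were higher than all VENsens lines, with VENins line 5 the lowest of its group and VENsens line 1 the highest of the other. Its log2 fold change of 0.22 (standard error 0.07, 95% interval 0.06 to 0.38) had the smallest p of the family in edgeR (unadjusted p = 0.0104, adjusted p = 0.180), and it was higher in 5 of 5 pairs. DESeq2 without the line number gave an adjusted p of 0.0458, within a range of 0.0458 to 0.581 over all alternatives, and log2 fold changes of 0.18 to 0.25. SLC25A36 (ENSG00000114120, chromosome 3, 140941830 to 140980961, plus strand) was at 175, 207, 169, 179.8 and 179.98 CPM in VENsens lines 1 to 5 and at 182, 167, 157, 173 and 158 CPM in VENins lines 1 to 5. The groups overlapped, VENsens line 2 stood far above the rest, and VENins line 1 lay above 4 VENsens lines. The log2 fold change was -0.12 with a standard error of 0.06 (adjusted p = 0.325 in edgeR). Its 95% interval of -0.25 to 0.00370 includes 0, and the value was -0.07 without line pair 2.

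The ratio of these carriers, per kilobase, was computed after their values had been seen, as 1 of 6 ratios between related members, and it has no test. Its log2 value, SLC25A33 over SLC25A36, was -1.91, -2.42, -1.98, -2.13 and -1.99 in VENsens lines 1 to 5 and -1.85, -1.73, -1.65, -1.78 and -1.72 in VENins lines 1 to 5. The groups did not overlap, although VENsens line 1 and VENins line 1 were close, and VENsens line 2 was the lowest. Another choice of gene length shifts this log2 value by the same amount in every line. The other 5 ratios, such as those of SLC25A5 to SLC25A4 and of SLC25A13 to SLC25A12, overlapped between the groups.

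Promoter sequence, from RefSeq on GRCh38.p14, was found for 40 of the 48 members and 31 of the 38 tested. It is shown for the pyrimidine carriers because the log2 fold changes of these close relatives had opposite signs. Neither was called by edgeR, and the interval of SLC25A36 includes 0. Each line gives 200 bases that end 10 bases before the annotated start, for SLC25A33 chromosome 1, 9539255 to 9539454, and for SLC25A36 chromosome 3, 140941626 to 140941825, both on the plus strand, and capitals mark the motifs CACGTG (E-box) and CCAAT.
SLC25A33: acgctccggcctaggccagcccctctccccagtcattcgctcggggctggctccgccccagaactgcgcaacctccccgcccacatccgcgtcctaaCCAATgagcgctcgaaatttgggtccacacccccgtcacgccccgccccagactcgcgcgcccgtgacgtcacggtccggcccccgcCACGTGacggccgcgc
SLC25A36: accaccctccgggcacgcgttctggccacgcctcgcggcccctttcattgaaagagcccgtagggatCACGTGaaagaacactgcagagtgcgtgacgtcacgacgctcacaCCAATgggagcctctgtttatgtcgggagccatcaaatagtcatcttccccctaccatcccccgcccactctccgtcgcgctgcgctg
Both promoters held both motifs, the E-box starting 26 bases before the start in SLC25A33 and 143 in SLC25A36, and CCAAT 113 and 98 bases before it. Searched on both strands over the whole promoter windows, CACGTG was present in 8 of the 31 tested members (25.8%), against 12.7% of 9918 tested genes and 8.77% of all 27305 genes with a promoter. CCAAT was present in 17 (54.8%, against 43% and 39.7%) and the ETS motif CCGGAAG in 10 (32.3%, against 22.5% and 12.2%). The YY1 motif AAGATGGC was present in 2, SLC25A3 and SLC25A44 (6.45%, against 6.58% and 3.52%), and the amino acid response motif TGATGNAA in 1, SLC25A11 (3.23%, against 2.78% and 4.46%). The NRF1 motif GCGCATGC (6.56% and 3.68%) and the ERR motif TCAAGGTCA (0.252% and 0.432%) were present in 0 of the 31. A match of letters is a description of the sequence and shows no binding.

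Calcium-regulated carriers that exchange ATP-Mg for phosphate showed no shared direction. SLC25A23 averaged 84.0 ± 4.43 CPM over VENsens lines and 85.9 ± 11.7 CPM over VENins lines, SLC25A24 at 43.8 ± 4.62 and 41.6 ± 1.45 CPM, and SLC25A25 at 17.3 ± 2.38 and 15.8 ± 2.44 CPM (SD, n = 5 each). SLC25A25 overlaps an antisense gene, and a strand setting is not given in the sources used here. Whether reads of the pair were told apart cannot be read from these counts. Such overlaps of other members are not given here. SLC25A41, a related exchanger, was among the 3 members with the largest spread between lines. It was at 1.46, 1.02, 1.198, 1.39 and 1.04 CPM in VENsens lines 1 to 5 and at 1.17, 1.72, 1.18, 0.982 and 1.61 CPM in VENins lines 1 to 5. The groups overlapped widely, VENins lines 2 and 5 being the highest, and with 21 to 42 counts per library its log2 fold change of 0.12 (standard error 0.21) turned to -0.04 without line pair 2 and -0.02 without line pair 5.

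The phosphate carrier SLC25A3 (ENSG00000075415, chromosome 12, 98593591 to 98606379, plus strand), which brings in the phosphate used for ATP synthesis, had the most counts of the family. It was at 523, 481, 540.5, 513 and 511 CPM in VENsens lines 1 to 5 and at 516, 545, 547, 542 and 503 CPM in VENins lines 1 to 5. VENsens line 2 was the lowest and VENins line 5 the next, and the groups overlapped (log2 fold change 0.05, standard error 0.05, adjusted p = 0.693 in edgeR), and the value was 0.01 without line pair 2. Its pseudogene SLC25A3P2 had means of 52.9 CPM (VENsens) and 55.4 CPM (VENins), and the identity to the SLC25A3 coding sequence was 84.1%, with 0 of 1012 stretches of 75 bases shared. A stretch of 75 bases in each is shown for the closeness of the pair, SLC25A3 at chromosome 12, 98599956 to 98600030, and SLC25A3P2 at chromosome 12, 111993622 to 111993696, both on the plus strand of GRCh38, with the 7 differences in capitals.
SLC25A3: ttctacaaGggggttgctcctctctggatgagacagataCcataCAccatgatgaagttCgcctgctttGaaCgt
SLC25A3P2: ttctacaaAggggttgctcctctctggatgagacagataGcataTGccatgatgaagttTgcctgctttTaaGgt

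The pseudogenes of other abundant members took fewer counts than their parents. SLC25A5P2, with 93.2% identity to SLC25A5, had means of 12.6 CPM (VENsens) and 12.7 CPM (VENins), and SLC25A1P1, with 90.04% identity to SLC25A1, had 4.58 and 4.92 CPM. SLC25A38P1 had 12.8 and 12.3 CPM, and it was the only pseudogene of the 5 compared that shared stretches of 75 bases with the coding sequence of its parent (47 of 838). Values of SLC25A38 are therefore less certain. Untranslated parts and stretches that match with differences were not compared. The other parents are thus not shown to be free of reads shared with their pseudogenes. Adding the counts of all pseudogenes named after a member moved the log2 fold change of SLC25A5 to 0.08. It turned the sign of none of the 19 members with values per line.

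Carboxylate carriers were higher in VENins lines for 3 of 3 tested members, with log2 fold changes between 0.10 and 0.12 and 0 called by edgeR, at an unadjusted p under 0.05 as well as an adjusted one. SLC25A1 (ENSG00000100075), which exports citrate for fatty acid and sterol synthesis, was at 101, 99.7, 114, 114 and 109.8 CPM in VENsens lines 1 to 5 and at 108, 116, 106, 109 and 141 CPM in VENins lines 1 to 5. VENins line 5 stood far above the other 9 lines, which overlapped (log2 fold change 0.10, standard error 0.07, adjusted p = 0.491 in edgeR). Without line pair 5 the value was the lowest of its leave-out range, 0.04 to 0.15. SLC25A11 (ENSG00000108528), the oxoglutarate carrier of the malate-aspartate shuttle, was at 50.03, 38.1, 45.0, 47.3 and 49.1 CPM in VENsens lines 1 to 5 and at 45.5, 45.3, 50.2, 51.7 and 56.9 CPM in VENins lines 1 to 5. VENsens line 2 was the lowest and VENins line 5 the highest, with overlap between (log2 fold change 0.12, standard error 0.06, adjusted p = 0.374 in edgeR), and the value was 0.19 without line pair 1. SLC25A10, the dicarboxylate carrier, was at 6.81 ± 1.00 and 7.29 ± 0.835 CPM. VENsens line 2 stood apart at 5.04 CPM, and the other VENsens lines, at 7.08 to 7.46 CPM, lay within the VENins range of 6.26 to 8.29 CPM. SLC25A21, the oxoadipate carrier, was listed at 0.

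Amino acid carriers had 7 tested members, 4 higher and 3 lower, with a median log2 fold change of 0.02 and a range of -0.14 to 0.13. SLC25A12 (ENSG00000115840), the aspartate/glutamate carrier aralar of the malate-aspartate shuttle, was at 26.99, 23.9, 24.5, 24.97 and 24.8 CPM in VENsens lines 1 to 5 and at 26.8, 28.6, 28.5, 26.4 and 26.7 CPM in VENins lines 1 to 5. VENsens line 1 alone lay within the range of VENins lines, and the other 4 lay below it (log2 fold change 0.13, standard error 0.07, adjusted p = 0.351 in edgeR). Its paralogue SLC25A13, citrin, was the more abundant per kilobase, 2.67-fold in VENsens and 2.53-fold in VENins lines (1.79-fold and 1.69-fold with the longest coding transcript), at 48.0 ± 1.62 and 49.7 ± 1.18 CPM. SLC25A38 (ENSG00000144659), which imports glycine for haem synthesis, was at 73.1, 74.1, 75.1, 70.7 and 77.3 CPM in VENsens lines 1 to 5 and at 69.2, 74.4, 72.2, 72.8 and 79.3 CPM in VENins lines 1 to 5. The groups covered the same range, and the log2 fold change of -0.01 (standard error 0.05) had the narrow 95% interval of -0.12 to 0.10. Log2 fold changes of the glutamate carrier SLC25A22, the basic amino acid carrier SLC25A29, the ornithine carrier SLC25A15 and the branched-chain amino acid carrier SLC25A44 were 0.02, 0.03, -0.14 and -0.06. Without line pair 4, SLC25A15 was at -0.25 (unadjusted p = 0.0314, adjusted p = 0.279 in edgeR). SLC25A22 and SLC25A29 were highest in VENins line 5, at 46.2 and 40.9 CPM. Other VENins lines had 32.3 to 40.3 and 29.8 to 35.2 CPM, and VENsens lines 30.1 to 38.9 and 32.2 to 34.7 CPM.

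Cofactor carriers held the members with the lowest log2 fold changes. SLC25A51 (ENSG00000122696, chromosome 9, 37879400 to 37904353, minus strand), which imports NAD into the matrix, was at 11.9, 11.1, 10.8, 11.9 and 12.0 CPM in VENsens lines 1 to 5 and at 10.5, 10.5, 10.3, 10.1 and 9.41 CPM in VENins lines 1 to 5. Every VENins line lay below every VENsens line, and the gap between VENsens line 3 and VENins line 1 was small. The log2 fold change was -0.18 (standard error 0.08, 95% interval -0.36 to -0.00494), with an unadjusted p of 0.0447 and an adjusted p of 0.295 in edgeR. SLC25A42 (ENSG00000181035, chromosome 19, 19063999 to 19112888, plus strand), the coenzyme A carrier, was at 48.1, 42.6, 44.2, 47.3 and 47.7 CPM in VENsens lines 1 to 5 and at 42.0, 40.5, 38.7, 39.0 and 46.4 CPM in VENins lines 1 to 5. VENins line 5 lay among the VENsens lines, and the other 4 VENins lines lay below all of them. Its log2 fold change was -0.16 (standard error 0.06, 95% interval -0.28 to -0.03), lower in 5 of 5 pairs, with an unadjusted p of 0.0210 and an adjusted p of 0.222 in edgeR.

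SLC25A20 (ENSG00000178537, chromosome 3, 48856931 to 48898993, minus strand) exchanges acylcarnitine for carnitine and so passes fatty acids to matrix oxidation. It was at 6.86, 7.27, 7.396, 7.15 and 7.38 CPM in VENsens lines 1 to 5 and at 8.46, 7.81, 7.85, 8.53 and 7.49 CPM in VENins lines 1 to 5. The groups did not overlap, but VENins line 5 and VENsens line 3 were close, and the difference rested on 150 to 217 counts per library (log2 fold change 0.15, standard error 0.09, adjusted p = 0.440 in edgeR). SLC25A39 (ENSG00000013306), a glutathione importer, was at 110.8, 87.1, 111, 103 and 97.6 CPM in VENsens lines 1 to 5 and at 102, 108, 93.0, 102 and 132 CPM in VENins lines 1 to 5. VENins line 5 was the highest and VENsens line 2 the lowest, and the log2 fold change of 0.07 (standard error 0.08) was -0.02 without line pair 5, 0.01 without line pair 2 and 0.15 without line pair 3. Its paralogue SLC25A40 had 118 ± 4.38 and 113 ± 6.63 CPM and a log2 fold change of -0.07. For SLC25A16 of coenzyme A metabolism, the peroxisomal carrier SLC25A17, the S-adenosylmethionine carrier SLC25A26 and the folate and FAD carrier SLC25A32, log2 fold changes lay between -0.05 and 0.08.

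**Figure D2:**
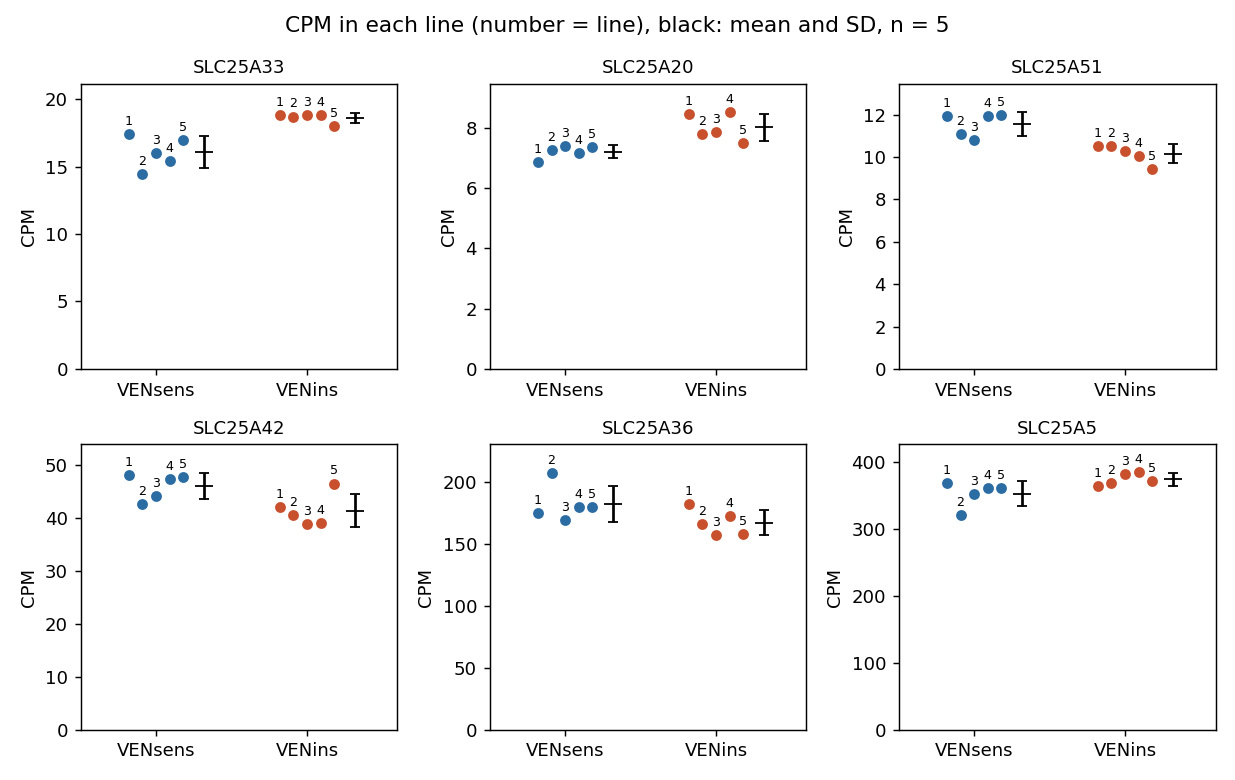
CPM of 6 members in each VENsens (blue) and VENins (orange) line, numbered by line, with the mean and SD (n = 5) in black and axes from 0. Groups do not overlap for SLC25A33, SLC25A20 and SLC25A51, whereas VENins line 5 overlaps VENsens lines for SLC25A42 (46.4 CPM).

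Both mitoferrins, which import iron for haem and iron-sulphur clusters, were expressed. SLC25A28 (ENSG00000155287), mitoferrin-2 of non-erythroid cells, was at 43.0, 35.0, 44.4, 40.3 and 43.0 CPM in VENsens lines 1 to 5 and at 41.4, 42.9, 43.2, 41.5 and 45.5 CPM in VENins lines 1 to 5. VENsens line 2 was the lowest, and otherwise the groups overlapped (log2 fold change 0.06, standard error 0.06, adjusted p = 0.678 in edgeR), and without line pair 2 the value was 0.00793. SLC25A37 (ENSG00000147454), mitoferrin-1 of the erythroid lineage, was at 59.0, 50.4, 51.2, 51.0 and 45.1 CPM in VENsens lines 1 to 5 and at 51.3, 53.9, 54.5, 58.4 and 56.8 CPM in VENins lines 1 to 5. VENsens line 1 was the highest of all lines and VENsens line 5 the lowest (log2 fold change 0.10, standard error 0.07, adjusted p = 0.5001 in edgeR), and the value was 0.05 without line pair 5 and 0.18 without line pair 1. Per kilobase of merged exons, SLC25A28 exceeded SLC25A37 3.72-fold in VENsens and 3.62-fold in VENins lines, and together they made up 4.55 ± 0.230% and 4.62 ± 0.0902% of the family's level. The fold depended on the length given to each gene, and in VENsens lines it was 2.66 with the longest and 1.84 with the median coding transcript.

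The uncoupling-like carriers had 2 tested members, both with a log2 fold change above 0 and neither called by edgeR at an unadjusted or adjusted p under 0.05. SLC25A14 (ENSG00000102078), also named UCP5, was at 9.15, 9.25, 9.54, 8.80 and 9.73 CPM in VENsens lines 1 to 5 and at 9.63, 11.9, 9.89, 9.16 and 9.45 CPM in VENins lines 1 to 5. VENins line 2 stood above the 9 others, which overlapped (log2 fold change 0.10, standard error 0.09), and without line pair 2 the value was 0.03. SLC25A30 (ENSG00000174032), a carrier first described in kidney, was at 22.6, 27.7, 24.3, 26.6 and 25.2 CPM in VENsens lines 1 to 5 and at 28.2, 26.1, 26.6, 27.9 and 25.7 CPM in VENins lines 1 to 5. VENsens lines 1 and 3 were the lowest and the groups overlapped (log2 fold change 0.09, standard error 0.07), and the value was 0.04 without line pair 1. SLC25A27, also named UCP4, was listed at 0.

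Members without an assigned substrate included the genes with the widest spread between lines. SLC25A34 was at 2.204, 0.969, 1.66, 2.08 and 1.48 CPM in VENsens lines 1 to 5 and at 1.79, 1.72, 1.71, 1.77 and 2.22 CPM in VENins lines 1 to 5. SLC25A35 was at 2.29, 1.21, 2.50, 1.82 and 1.68 CPM in VENsens lines 1 to 5 and at 1.97, 2.78, 2.24, 1.93 and 2.22 CPM in VENins lines 1 to 5. VENsens line 2 was the lowest for both genes, the groups overlapped, and the libraries held only 20 to 53 and 25 to 71 counts of them. Their log2 fold changes of 0.15 (standard error 0.19) and 0.23 (standard error 0.19) had 95% intervals that include 0 (adjusted p = 0.749 and 0.588 in edgeR), and with a line pair left out they ranged from 0.02 to 0.27 and from 0.02 to 0.35, both lowest without line pair 2. SLC25A46, a protein of the outer membrane that takes part in mitochondrial shape, had 96.6 ± 4.13 and 94.1 ± 7.77 CPM, and log2 fold changes of SLC25A43 and SLC25A45 were both 0.05.

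Per kilobase of merged exons, the order of the members in VENsens lines was led by SLC25A5 at 235 ± 12.4 CPM per kilobase, followed by SLC25A3 at 57.7 ± 2.44, SLC25A1 at 51.4 ± 3.33, SLC25A39 at 28.9 ± 2.84, SLC25A38 at 27.3 ± 0.891 and SLC25A28 at 23.4 ± 2.12 (SD, n = 5). The lowest library of SLC25A5, at 214 CPM per kilobase, lay above the highest of any other member except SLC25A6. The level of SLC25A6 cannot be read from these counts. SLC25A3 and SLC25A1 overlapped (54.1 to 60.8 and 47.5 to 54.5 CPM per kilobase), as did SLC25A39 and SLC25A38, and SLC25A28 overlapped with SLC25A40 and SLC25A32. In VENins lines SLC25A5 had 250 ± 5.99, SLC25A3 59.6 ± 2.19 and SLC25A1 55.3 ± 6.84 CPM per kilobase. SLC25A34 and SLC25A35 closed the order of tested members, at 0.525 ± 0.155 and 0.487 ± 0.131 CPM per kilobase in VENsens lines.

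**Figure D3:**
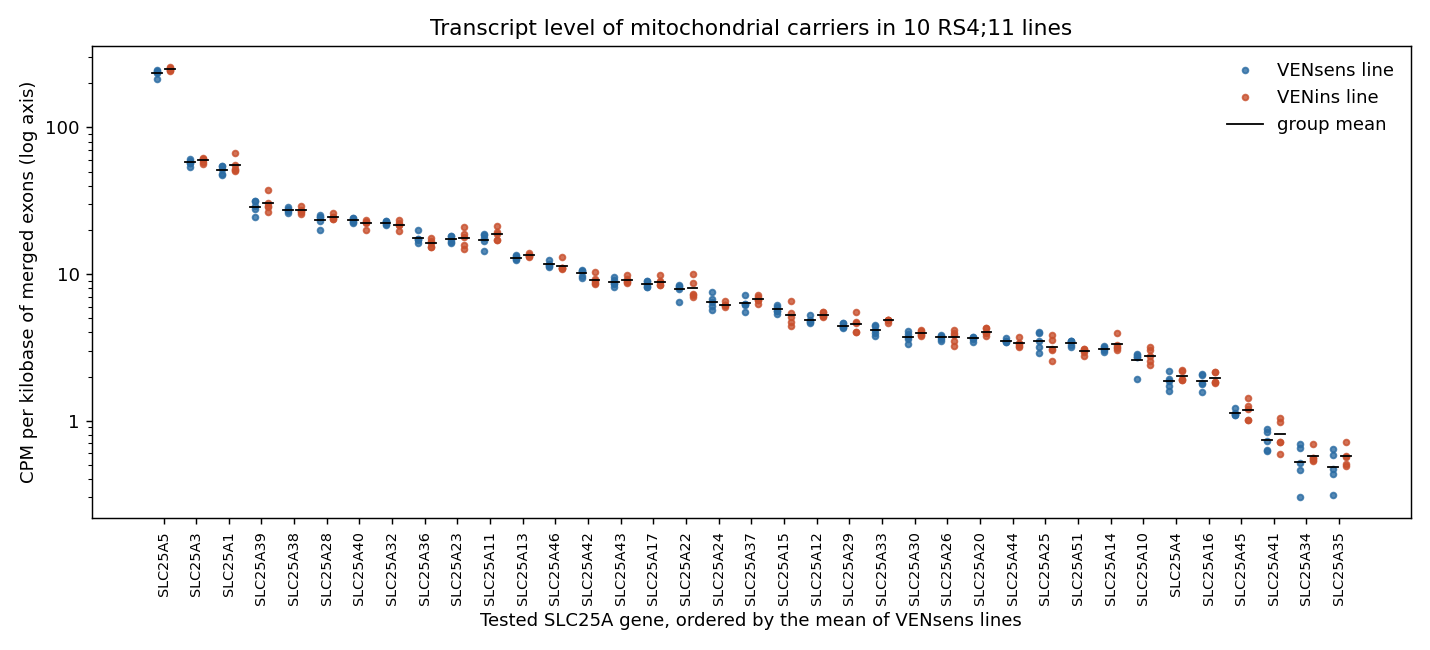
CPM per kilobase of merged exons (log axis) of the 38 tested members, 1 of them not shown, in each VENsens (blue) and VENins (orange) line, with group means as black bars, ordered by the VENsens mean. SLC25A5 leads at 235 and SLC25A35 is last at 0.487 CPM per kilobase in VENsens lines, and the 2 groups lie side by side for each member.

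The order of the members, with SLC25A5 in the lead and SLC25A6 counted at its listed 0, depended on the length given to each gene. With merged exons SLC25A5 held 36.1 ± 0.814% of the family's level in VENsens lines (SD, n = 5), and with the longest protein-coding transcript 30.3%. With the median length of a gene's protein-coding transcripts, a setting added after the data had been seen, its share was 16.6% and SLC25A3 led with 22.7%, SLC25A36 came next after SLC25A5 (8.39%, against 2.72% with merged exons), and SLC25A1 had 4.07% (against 7.87%), below SLC25A38 with 4.71%. SLC25A3 has 8896 bases of merged exons, a longest coding transcript of 6087 bases and a median coding transcript of 1351 bases, while SLC25A5 has 1500, 1274 and 1274. Which transcripts of SLC25A3 were present cannot be read from counts per gene. Shares of the other groups, with merged exons, were 16.9% for cofactors, 10.9% for carboxylates, 10.2% for amino acids, 8.85% for phosphate, 3.47% for members without a substrate and 1.05% for uncoupling-like carriers in VENsens lines, and in VENins lines 16.3%, 11.4%, 9.94%, 8.84%, 3.38% and 1.08%. With the median coding transcript they were 15.8%, 7.16%, 11.4%, 22.7%, 4.55% and 2.998% in VENsens lines, in the same order.

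**Figure D4:**
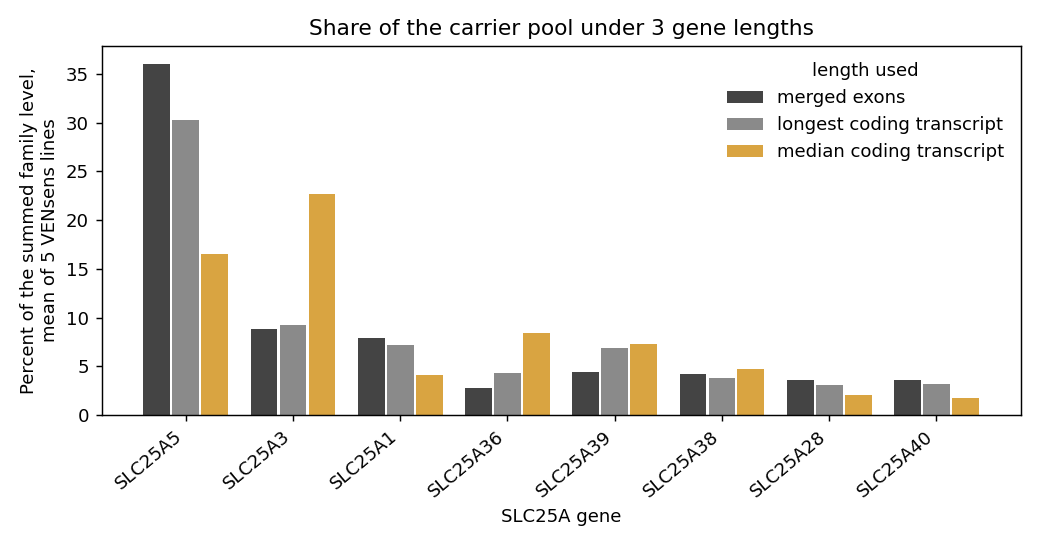
Percent of the family's summed level per kilobase held by 8 members, as the mean of 5 VENsens lines, with lengths from merged exons (black), the longest coding transcript (grey) or the median coding transcript (yellow). SLC25A5 goes from 36.1% to 30.3% and 16.6%, and SLC25A3 from 8.85% to 9.22% and 22.7%.

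Libraries of the same group differed, and in some of them the differences were correlated with base composition. Within groups, counts of pairs of lines differed by more than counting error, with a chi-square per degree of freedom of 1.93 to 9.89 among VENsens and 4.33 to 14.4 among VENins lines. Because each line gave a single library, differences between lines and between library preparations cannot be told apart. VENins line 5 was the highest of the 10 lines for 12 of the 38 tested members, and VENsens line 2 the lowest for 14. The deviation of a member from its mean over the lines was correlated, across the 38 members, with the GC content of its transcript at 0.79 in VENins line 5 and at -0.60 in VENsens line 2, as were all tested genes with a transcript (0.47 and -0.23 across 16312 genes). These were the largest values of either sign, and in the other 8 lines the correlation across members ran from -0.49 (VENins line 1) to 0.34 (VENsens line 1), with 0.04 in VENins line 2 and -0.07 in VENsens line 5. Taken from the mean of the line's own group, the values were 0.81 in VENins line 5 and -0.65 in VENsens line 2. These correlations are descriptions across genes that share a library, and they have no test. GC-rich members such as SLC25A1, SLC25A22, SLC25A39 and SLC25A11 had their highest level in VENins line 5, and GC-poor SLC25A40 and SLC25A36 were high in VENsens line 2. Log2 fold changes of the members were correlated with GC content at 0.21 and with transcript length at -0.08 (0.01 and -0.23 for all tested genes).

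**Figure D5:**
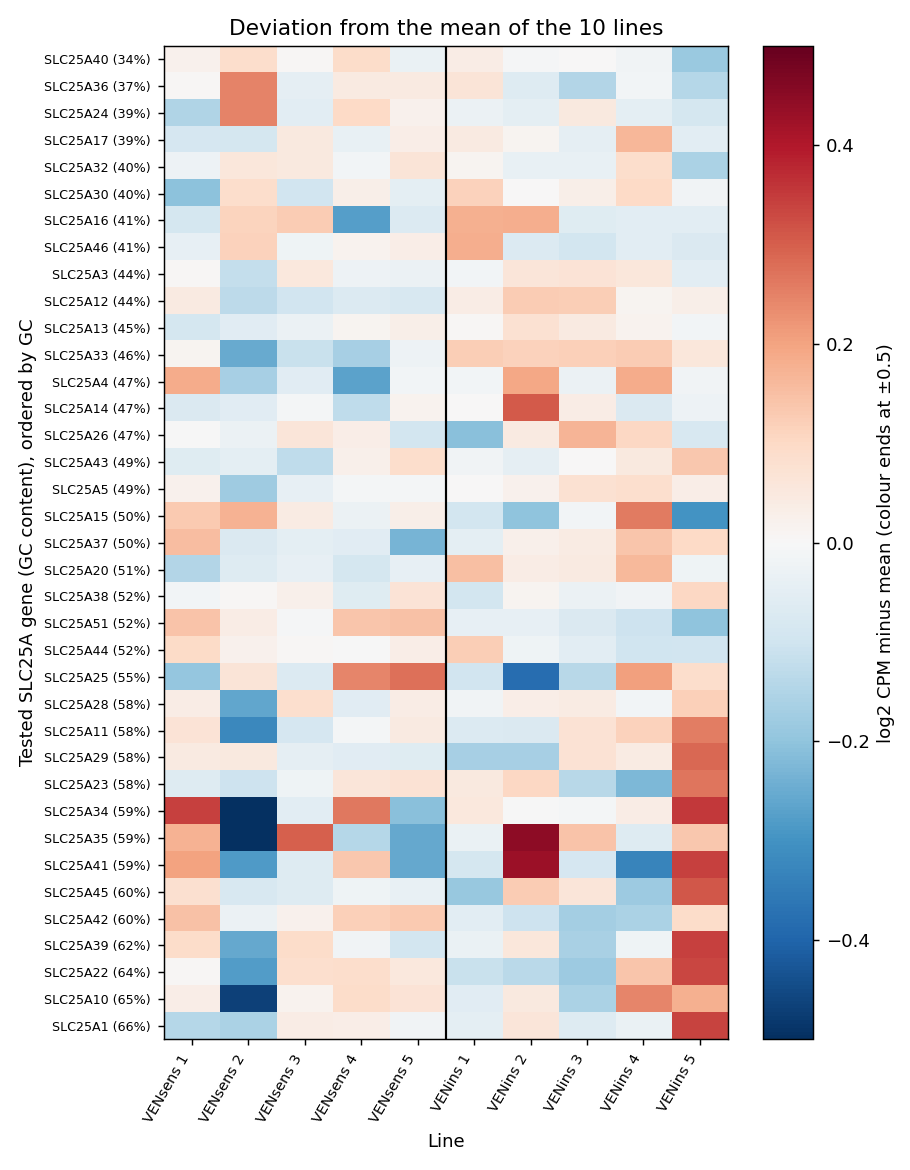
Log2 CPM of the tested members, 1 of them not shown, in each line minus the mean over the 10 lines (colour, ends at ±0.5), ordered by GC content from 34.2% (SLC25A40) to 65.6% (SLC25A1). VENins line 5 is red towards the GC-rich end (correlation 0.79) and VENsens line 2 is blue there (correlation -0.60).

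With each library's trend on length and GC content taken out, 8 members had an unadjusted p under 0.05 in edgeR, against 18.3% of all tested genes, and 0 had an adjusted p under 0.05. They were SLC25A33 (log2 fold change 0.25), SLC25A37 (0.17), SLC25A12 (0.13), SLC25A3 (0.11), SLC25A11 (0.11), SLC25A36 (-0.09), SLC25A42 (-0.14) and SLC25A51 (-0.20). Without the correction SLC25A37 was at 0.10 and SLC25A3 at 0.05. Other members had smaller values with it, SLC25A1 0.06 (0.10 without it), SLC25A5 0.06 (0.09), SLC25A39 0.04 (0.07) and SLC25A28 0.04 (0.06). Beyond this correction, the part of base composition in the differences between groups was not tested.

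Genes that work with the carriers were read from lists. Of the 10 genes for the import route of carrier proteins, 6 were higher and 4 lower in VENins lines, 0 were called by edgeR, and 1, TIMM9, had an unadjusted p under 0.05, beside 16.2% of all tested genes. TIMM9, a chaperone of the space between the membranes, averaged 44.4 ± 2.44 CPM over VENsens lines and 50.8 ± 3.24 CPM over VENins lines, a log2 fold change of 0.19 (adjusted p = 0.156 in edgeR). TIMM8B was at 0.14, TIMM10B at -0.04 and AGK, a lipid kinase that is part of the TIM22 complex, at -0.21 on the same scale. Of the relatives with other names, 4 were tested, 2 of them with a log2 fold change above 0, and UCP1, the uncoupling protein of brown fat, was not. UCP2 was at 159 ± 6.81 and 153 ± 12.4 CPM (log2 fold change -0.06), UCP3 at 1.75 ± 0.284 and 2.05 ± 0.117 CPM (0.24), and the outer membrane proteins MTCH1 and MTCH2 had log2 fold changes of -0.01 and 0.13, with 0 of the 4 called by edgeR and MTCH2 at an unadjusted p of 0.0461 (1 of 4, beside 16.2% of all tested genes).

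Enzymes that use the shuttles had 11 tested members, 5 higher and 6 lower, 0 called by edgeR and 2 at an unadjusted p under 0.05, CPT1A and CPT2 (18.2%, beside 16.2% of all tested genes). CPT1A, which makes the acylcarnitine that SLC25A20 transports, was at 10.5, 10.6, 10.1, 8.50 and 10.9 CPM in VENsens lines 1 to 5 and at 3.43, 3.72, 7.32, 17.1 and 4.84 CPM in VENins lines 1 to 5. VENins line 4 stood above all VENsens lines and the other 4 below them, so that the log2 fold change of -0.66 had a standard error of 0.27 (adjusted p = 0.251 in edgeR). CPT2, which takes the acyl group from carnitine in the matrix, was at 34.8, 38.6, 35.3, 39.9 and 38.1 CPM in VENsens lines 1 to 5 and at 29.3, 29.02, 34.3, 32.3 and 31.8 CPM in VENins lines 1 to 5. All VENins lines lay below all VENsens lines, while SLC25A20 between these enzymes had the opposite sign (log2 fold change of CPT2 -0.25, standard error 0.07, adjusted p = 0.107 in edgeR). GPD1 and CPT1C, with log2 fold changes of 0.26 and 0.20, were at 1.22 and 0.359 CPM in VENsens lines, and CRAT was not tested.

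Other transporters of the inner membrane had 17 tested members, 8 higher and 9 lower, of which 1 was called by edgeR, beside 0.197% of all tested genes, and 3 (SFXN3, MPC2 and MCU) had an unadjusted p under 0.05 (17.6%, beside 16.2%). SFXN3, a sideroflexin related to mitochondrial serine import, was at 52.5, 47.6, 50.9, 55.6 and 51.4 CPM in VENsens lines 1 to 5 and at 34.3, 33.8, 36.7, 49.5 and 37.6 CPM in VENins lines 1 to 5. VENins line 4 lay among the VENsens lines and the other 4 lay below. SFXN3 fell by 0.44 on the log2 scale (standard error 0.07, adjusted p = 0.0151 in edgeR), and the call was lost without line pair 2, 3 or 5 (adjusted p = 0.198, 0.0532 and 0.0563 in edgeR, with a range of 6.55e-07 to 0.198 over all alternatives). Its log2 fold change without these pairs was -0.42, -0.43 and -0.43, within a range of -0.51 to -0.39 over all alternatives. MPC2, a subunit of the pyruvate carrier, had 53.6 ± 2.61 and 65.8 ± 5.75 CPM without overlap of the groups (log2 fold change 0.29, adjusted p = 0.0841 in edgeR), its partner MPC1 a log2 fold change of 0.16, and the calcium channel MCU one of -0.16.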

How the data were processed

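RNA-Seq of 10 RS4;11 lines, 5 VENins and 5 VENsens, was analysed from the read counts per Ensembl gene that the authors deposited, 1 file per library and without normalization. The submitters' processing notes name bcl2fastq 2.20.0.422, Bowtie2 2.3.5.1, SAMtools 1.9, HTSeq 0.9.1 and the build hg19 (GRCh37), and the strand setting is not given in the sources used here. Of the reads in a file, 52.7% to 54.2% were counted on genes. The summary lines held 24.6% to 26.2% (low alignment quality), 9.39% to 10.2% (not aligned), 7.29% to 7.78% (outside genes), 3.69% to 3.98% (several genes) and 0% (several positions), and they stayed out of library sizes and tests.

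Symbols, lengths and positions were looked up by Ensembl identifier in GENCODE 29 (GRCh38), where 52526 of 63677 identifiers were found, and no coordinate was converted. Genes were kept by filterByExpr (minimum count 10, minimum total 15), normalized by TMM and tested with edgeR's quasi-likelihood F test (edgeR 4.0.16, limma 3.58.1, R 4.3.3). The model held the line number as a block, since a paired analysis is described in the study's methods. Benjamini-Hochberg adjustment ran over the 16756 tested genes, and an adjusted p under 0.05 made a call. DESeq2 1.42.0, other normalizations and filters, lines left out, a correction for length and GC content (splines with 4 degrees of freedom per library) and added pseudogene counts served as alternatives. Log2 CPM used a prior count of 2. The edgeR and DESeq2 fits were also run on simulated counts with known changes. These counts held no effect of the line number and no GC trend, and the outcome is not given here. Tables and plots were made with pandas 2.3.3, scipy 1.17.1, numpy 2.4.6 and matplotlib 3.10.9 (Python 3.11.15).

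Values per line are given for the 8 members with the smallest p, the 6 with the largest level per kilobase in VENsens lines, the 3 with the largest spread, the mitoferrins and the uncoupling-like carriers, and for CPT1A, CPT2 and SFXN3, picked from the lists after their values had been seen. Further genes of the lists are named with a mean or a log2 fold change only. Substrate groups and lists were compiled from general knowledge. Values of 1 member, of 1 marker list and of 1 further marker are not reported here. The members and lists were chosen with earlier results of these data known.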

Additional observations from a re-analysis of the deposited data

Results flagged for a closer look

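The CPM of each tested member was examined for a line far from the other 4 of its group, by Dixon's criterion (gap over range above 0.71). Of 76 groups of 5 values, 9 had such a line, where chance gives about 1 in 20 groups, or 3.8.

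VENins line 5 was set apart for 4 members. SLC25A1 was at 141 CPM there (106 to 116 CPM in the other VENins lines), SLC25A34 at 2.22 (1.71 to 1.79), SLC25A33 at 18.0 (18.7 to 18.9) and SLC25A40 at 101 (114 to 118). The first pair was high and the second pair low in that line, and for SLC25A33 the separation arose because the other 4 values were nearly equal.

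VENsens line 2 was set apart for 3 members, SLC25A10 at 5.04 CPM (7.08 to 7.46 CPM in the other VENsens lines), SLC25A22 at 30.1 (36.8 to 38.9) and SLC25A36 at 207 (169 to 179.98). The GC-rich SLC25A10 and SLC25A22 were low and the GC-poor SLC25A36 was high there, and the part of base composition in these values was not tested. SLC25A14 was at 11.9 CPM in VENins line 2 (9.16 to 9.89 CPM in the others), and SLC25A46 at 108 CPM in VENins line 1 (89.4 to 91.8 CPM in the others).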

How the results depend on the processing

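The number of genes called, 33, depended on the method. It was 149 with no block for the line number, 217 with DESeq2 and the block, 739 with DESeq2 without it, 664 with no filter on low counts (adjusted over more genes) and 143 with the length and GC trend taken out, and it ranged from 6 (without line pair 2) to 331 (without line pair 4). Members called were 0 in these fits except 1, SLC25A33, under DESeq2 without the block. Members with an unadjusted p under 0.05 were 8 with the length and GC trend taken out (beside 18.3% of all tested genes), and with a pair left out 1 (without pair 3, beside 13.3%) to 5 (without pair 1, beside 16.8%). The causes were not tested.

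Same-numbered lines did not deviate together: the correlation of their deviations was -0.103 to 0.028, and 0 of 5 VENsens lines correlated best with the VENins line of their number. Without the block the count of genes called was 149, and the block changed no call of a member in edgeR.

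Of 266 alternative log2 fold changes of the 19 members with values per line, 5 had the opposite sign, all with a pair left out: SLC25A38 ranged from -0.0231 to 0.00718, SLC25A39 from -0.0194 to 0.154 and SLC25A41 from -0.0392 to 0.262. The other tested members are outside this tally, and some of them turned sign too. Of all 38 tested members, 27 were above 0 with all lines and 21 without line pair 5. With SLC25A6 counted at its listed 0, the largest carrier held 36.1% of the family's level. This share was 30.3% with the longest coding transcript and 22.7% (SLC25A3) with the median coding transcript, a setting chosen after seeing the data. It kept 35.8% to 36.3% when VENsens lines were left out. SLC25A34, SLC25A35 and SLC25A41 rest on few counts per library, and the parts of counting error and of line spread in their values were not tested.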
